A study of Homo sapiens with 4 samples.

Results

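A-seq, which reads the ends of polyadenylated RNA just before the tail, was used to count transcripts at 5 loci of HEK293 cells that lost most of their reads after depletion of CF Im 68 or CstF-64, or after each of these depletions. HEK293 is an established line derived from human embryonic kidney. Each locus was a strand-specific window on hg19 (GRCh37), given 1-based. The windows were chrX:106956000-107020000 on the minus strand (TSC22D3), chr5:172741000-172757000 on the minus strand (STC2), chr2:24232000-24287500 on the plus strand (labelled MFSD2B, and called the chromosome 2 window here), chr19:30017000-30056500 on the plus strand (VSTM2B) and chrX:151995000-152000000 on the minus strand (CETN2). They were chosen because their totals were among those that fell most, so that the totals below describe the choice and carry no test. They are 5 of 18156 loci, where a locus is all 3′ end sites of 1 strand within 10 kb of the most used one.

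The 4 groups had 1 library each. They were cells treated with an siRNA against CF Im 68 (12792623 reads), an siRNA against CstF-64 (7343112 reads), a scrambled control siRNA (13443454 reads) and no siRNA (15806975 reads). Harvest of the siRNA-treated cells was 3 days after transfection, with 1 siRNA per target. The no siRNA cells received no siRNA, and no harvest day is listed for them. Whether the siRNA treatment itself moved the control libraries apart was not tested. With 1 library per group, how much separate cultures vary is unknown, and every interval below covers counting error only. Levels are in RPM, a window's reads scaled to the total reads of its library. A lower level in such bulk RNA cannot be told apart as less RNA per cell or fewer cells with the transcript.

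Almost every mRNA 3′ end is made by cleavage of the nascent transcript followed by poly(A) addition. CF Im 68, the product of CPSF6, belongs to cleavage factor I, a complex that recognises UGUA motifs ahead of the cleavage position. CstF-64, the product of CSTF2, contacts the RNA for the cleavage stimulation factor, at U-rich and GU-rich stretches past that position. A transcript with several sites can be cleaved at a proximal site, nearer the coding region, or at a distal site.

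The siRNAs that define the depleted groups are shown as the labels give them, 5′ to 3′, without the 2 unspecified bases at the start of each, and all 19 bases are in lower case because no part was singled out.
CF Im 68 siRNA: gaccgagauuacauggaua
CstF-64 siRNA: ccugaaugggcgcgaauuc
The targeted transcripts were only moderately lower. CPSF6 had 134 RPM after CF Im 68 siRNA, 180.2 RPM after CstF-64 siRNA, 186 RPM after control siRNA and 165 RPM without siRNA. The level after CF Im 68 siRNA was 0.718 times that after control siRNA (95% exact conditional interval 0.675 to 0.764). CSTF2 had 17.02 RPM after CstF-64 siRNA, 34.2 RPM after CF Im 68 siRNA, 23.7 RPM after control siRNA and 36.8 RPM without siRNA. After CstF-64 siRNA its level was 0.717 times that after control siRNA (0.579 to 0.885) and 0.462 times that without siRNA (0.378 to 0.562). Each target was therefore lowest in its own library. The labels say that the depletions were checked at the protein level by Western blot, which is not part of these data. Over 17877 loci with at least 50 reads in all, the median log2 ratio to control siRNA (RPM plus 1) was 0.02 with CF Im 68 siRNA and −0.19 with CstF-64 siRNA. With TMM factors or DESeq2 size factors both medians were at 0.00 or −0.00. The ratios after CstF-64 siRNA are scaled by total reads unless stated otherwise, so they include that lowered median.

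TSC22D3, STC2, the chromosome 2 window and VSTM2B were low after either depletion, and CETN2 was low after CstF-64 siRNA alone.

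**Figure D1:**
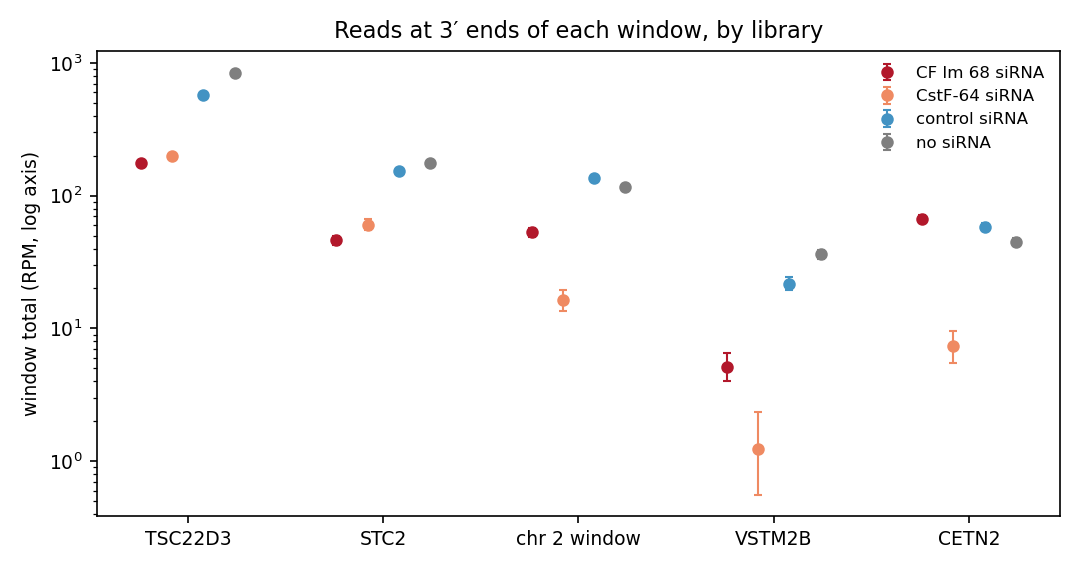
Window totals in RPM on a log axis for the 5 windows, in the CF Im 68 siRNA, CstF-64 siRNA, control siRNA and no siRNA libraries (1 library each). Bars are 95% exact Poisson intervals, which are smaller than the points at high totals. The CstF-64 point lies below both controls in every window, and the CF Im 68 point does so in all windows but CETN2, where it is at 66.7 RPM.

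TSC22D3 encodes GILZ, a leucine zipper protein induced by glucocorticoids that restrains inflammatory transcription factors. Its window had 177 RPM after CF Im 68 siRNA (2264 reads), 199.9 RPM after CstF-64 siRNA (1468 reads), 573 RPM after control siRNA (7706 reads) and 842 RPM without siRNA (13315 reads). Both depleted libraries lay below both controls, and the controls were themselves apart. The level after CF Im 68 siRNA was 0.309 times that after control siRNA (0.294 to 0.324) and 0.210 times that without siRNA (0.201 to 0.220). After CstF-64 siRNA it was 0.349 times that after control siRNA (0.330 to 0.369) and 0.237 times that without siRNA (0.225 to 0.250). Control siRNA alone stood at 0.680 times the level without siRNA (0.662 to 0.700), so the distance of the depleted libraries depended on the control. The level after CF Im 68 siRNA was 0.885 times that after CstF-64 siRNA (0.829 to 0.946).

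The TSC22D3 reads came almost entirely from a single poly(A) site at 106956454. This site held 99.7% of window reads with CF Im 68 siRNA, 99.9% with CstF-64 siRNA, 99.5% after control siRNA and 99.9% without siRNA. Only 59 of 24753 reads in the 64 kb window lay elsewhere, and no other cluster of positions reached 20 reads. Its decline was thus a loss at 1 end, with no second site in the window that gained reads. Within the site, 94.3% of reads with CF Im 68 siRNA (95% exact Clopper-Pearson interval 93.3 to 95.2) and 94.5% with CstF-64 siRNA (93.3 to 95.7) ended at the single most used position, against 91.3% after control siRNA (90.6 to 91.9) and 91.4% without siRNA (90.9 to 91.8). A minor position 7 nt upstream held 2.44% of site reads with CF Im 68 siRNA and 2.25% with CstF-64 siRNA, against 5.55% after control siRNA and 5.64% without siRNA. That position had 4.30 RPM after CF Im 68 siRNA and 4.49 RPM after CstF-64 siRNA, against 31.7 RPM after control siRNA and 47.4 RPM without siRNA. Among the other minor positions, some fell about as far but on few reads, and some did not. The position 3 nt downstream had 0.235 RPM after CF Im 68 siRNA (3 reads) and 0.136 RPM after CstF-64 siRNA (1 read). It had 1.56 RPM after control siRNA (21 reads) and 2.59 RPM without siRNA (41 reads). The position 4 nt downstream had 1.33 RPM after CF Im 68 siRNA and 1.36 RPM after CstF-64 siRNA. Against 3.94 RPM after control siRNA and 4.62 RPM without siRNA, this was a fall about like that of the main position. Without the most read position, the remaining reads after CF Im 68 siRNA were 0.202 times those after control siRNA, and after CstF-64 siRNA they were 0.211 times.

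STC2 encodes stanniocalcin 2, a secreted glycoprotein that inhibits the protease PAPP-A and is induced by endoplasmic reticulum stress and hypoxia. Its window had 46.1 RPM after CF Im 68 siRNA (590 reads), 60.3 RPM after CstF-64 siRNA (443 reads), 154 RPM after control siRNA (2077 reads) and 177 RPM without siRNA (2797 reads). Both depleted libraries lay below both controls, which differed less from each other than in TSC22D3. The ratio to control siRNA was 0.299 with CF Im 68 siRNA (0.272 to 0.327) and 0.390 with CstF-64 siRNA (0.352 to 0.433). The ratio to no siRNA was 0.261 with CF Im 68 siRNA (0.238 to 0.285) and 0.341 with CstF-64 siRNA (0.308 to 0.377).

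STC2 was the only member with several well-used poly(A) sites, and all 3 of them were lower after CF Im 68 siRNA than in either control. The proximal site at 172744071 had 19.9 RPM after CF Im 68 siRNA, 30.9 RPM after CstF-64 siRNA, 80.9 RPM after control siRNA and 67.1 RPM without siRNA. The middle site at 172742443, 1628 nt downstream, had 16.0 RPM after CF Im 68 siRNA, 16.5 RPM after CstF-64 siRNA, 47.2 RPM after control siRNA and 88.4 RPM without siRNA. The middle site was lower after control siRNA than without siRNA, while the proximal site was higher. The distal site at 172741717, 2354 nt downstream of the proximal one, had 5.39 RPM after CF Im 68 siRNA, 10.1 RPM after CstF-64 siRNA, 19.3 RPM after control siRNA and 12.4 RPM without siRNA. At the distal site the ratio of CstF-64 siRNA to no siRNA was 0.813 (0.613 to 1.07), an interval that includes 1. A minor site 760 nt upstream of the proximal one had 1.49 RPM after CF Im 68 siRNA (19 reads), 0.817 RPM after CstF-64 siRNA (6 reads), 1.41 RPM after control siRNA (19 reads) and 2.15 RPM without siRNA (34 reads). Its ratio of CF Im 68 siRNA to control siRNA was 1.05 (0.527 to 2.10), so a change like that of the main sites was not seen there at this depth.

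**Figure D2:**
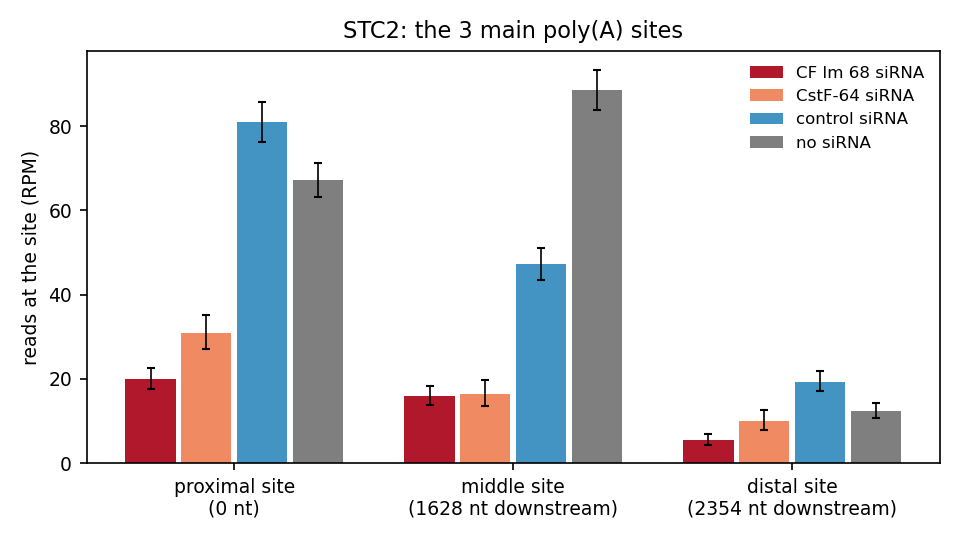
Reads in RPM at the 3 main STC2 poly(A) sites, ordered along the transcript, for the 4 libraries (1 each, 95% exact Poisson intervals). At the middle site the depleted libraries are at 16.0 and 16.5 RPM, against 47.2 RPM after control siRNA and 88.4 RPM without siRNA.

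The split of STC2 reads between its sites was not used to choose the loci and could be tested. Of the reads at the 2 most used sites, the proximal share is the percentage at the proximal one. It was 55.4% with CF Im 68 siRNA (50.8 to 60.0), 65.2% with CstF-64 siRNA (60.0 to 70.2), 63.2% after control siRNA (60.8 to 65.4) and 43.1% without siRNA (41.2 to 45.1). The tests were two-sided Fisher's exact tests of reads, adjusted by Benjamini-Hochberg over 4793 loci with such a pair and at least 50 pair reads in every library. They compare 2 libraries and not conditions. After CF Im 68 siRNA the share differed by −7.73 points from control siRNA (adjusted p = 0.00687, Fisher's exact test) and by 12.3 points from no siRNA (adjusted p = 4.29e-06, Fisher's exact test). The sign thus depended on the control. After CstF-64 siRNA it differed by 2.07 points from control siRNA (adjusted p = 0.698, Fisher's exact test) and by 22.1 points from no siRNA (adjusted p = 1.52e-13, Fisher's exact test). Control siRNA differed from no siRNA by 20.0 points (adjusted p = 1.87e-35, Fisher's exact test), so the control libraries were themselves apart. Against no siRNA alone, a share at least 10 points larger with an adjusted p below 0.05 was found at 35% of loci after CF Im 68 siRNA, at 19% in the CstF-64 library and at 10.6% after control siRNA. A shift of at least 10 points against both controls in the same direction, with an adjusted p below 0.05 against control siRNA, was not met by STC2 after either depletion. That shift was met toward the proximal site by 24.2% of loci with CF Im 68 siRNA and by 8.2% with CstF-64 siRNA. Toward the distal site it was met by 2.63% of loci with CF Im 68 siRNA and by 3.59% with CstF-64 siRNA. No other member had a pair with enough reads to test.

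The chromosome 2 window is labelled MFSD2B, which encodes an exporter of sphingosine-1-phosphate in red cells and platelets, but nearly all of its reads lay far from where that gene can end. Its only well-used site was at 24286549, 54.5 kb from the window's 5′ edge. In the RefSeq gene table of another build, GRCh38.p14, MFSD2B spans 16.7 kb, and the next gene of the same strand with an end near that distance is FKBP1B, which ends 53.6 kb from the MFSD2B start. FKBP1B encodes FKBP12.6, a prolyl isomerase that binds ryanodine receptors. No coordinates were converted between builds, and no hg19 annotation was used, so the gene was not settled. Within the MFSD2B length plus 2 kb from the window's 5′ edge there were 11 reads with CF Im 68 siRNA, 2 with CstF-64 siRNA, 8 after control siRNA and 13 without siRNA. The values of this window therefore say next to nothing about MFSD2B.

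The chromosome 2 window had 53.2 RPM after CF Im 68 siRNA (680 reads), 16.3 RPM after CstF-64 siRNA (120 reads), 136 RPM after control siRNA (1827 reads) and 117 RPM without siRNA (1850 reads). It was low after either depletion and lowest after CstF-64 siRNA. The ratio to control siRNA was 0.391 with CF Im 68 siRNA (0.358 to 0.427) and 0.120 with CstF-64 siRNA (0.0991 to 0.145). The ratio to no siRNA was 0.454 with CF Im 68 siRNA (0.415 to 0.496) and 0.140 with CstF-64 siRNA (0.115 to 0.168). The level after CF Im 68 siRNA was 3.25 times that after CstF-64 siRNA (2.68 to 3.98). The site at 24286549 held 97.6% of window reads with CF Im 68 siRNA, 95.8% with CstF-64 siRNA, 99.1% after control siRNA and 98.9% without siRNA, so the loss was at this end. Reads of the opposite strand within the same window did not show it. They were at 11.2 RPM after CF Im 68 siRNA, 10.8 RPM after CstF-64 siRNA, 9.22 RPM after control siRNA and 7.15 RPM without siRNA. In the 10 kb on the 5′ side of the window, same-strand reads were at 10.9 RPM after CF Im 68 siRNA, 6.81 RPM after CstF-64 siRNA (95% exact Poisson interval 5.05 to 8.98), 10.6 RPM after control siRNA and 8.10 RPM without siRNA. In the 10 kb on the 3′ side there were 11 reads with CF Im 68 siRNA (0.860 RPM, 0.429 to 1.54), 2 reads with CstF-64 siRNA (0.272 RPM), 3 reads after control siRNA (0.223 RPM) and 3 reads without siRNA (0.190 RPM). The intervals of CF Im 68 siRNA and of the controls overlap there, and the counts were not tested against each other.

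VSTM2B encodes a membrane protein with an immunoglobulin-like V-set domain, whose function is little known. Its window had 5.16 RPM after CF Im 68 siRNA (66 reads), 1.23 RPM after CstF-64 siRNA (9 reads), 21.8 RPM after control siRNA (293 reads) and 36.1 RPM without siRNA (571 reads). It was the least read member and had the smallest ratios of all 5 to either control. The ratio to control siRNA was 0.237 with CF Im 68 siRNA (0.178 to 0.310) and 0.0562 with CstF-64 siRNA (0.0255 to 0.108). The ratio to no siRNA was 0.143 with CF Im 68 siRNA (0.109 to 0.185) and 0.0339 with CstF-64 siRNA (0.0154 to 0.0649). Control siRNA was also below no siRNA, at 0.603 times its level (0.522 to 0.696). CF Im 68 siRNA left 4.21 times the level found after CstF-64 siRNA (2.09 to 9.61), a wide interval because it rests on 9 reads.

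VSTM2B had a main site at 30055457 and a weak one at 30055390, 67 nt upstream. The main site held 78.8% of window reads with CF Im 68 siRNA (67.0 to 87.9), 88.9% with CstF-64 siRNA (51.8 to 99.7), 88.1% after control siRNA (83.8 to 91.5) and 87.9% without siRNA (85.0 to 90.5). The weak site had 6 reads after CF Im 68 siRNA (0.469 RPM), none after CstF-64 siRNA, 30 reads after control siRNA (2.23 RPM) and 57 reads without siRNA (3.61 RPM). A count of 0 in the CstF-64 library allows up to 0.409 RPM by a floor of 3 reads, or 0.502 RPM by the 95% exact Poisson interval. Both sites were thus low after CF Im 68 siRNA, with ratios to control siRNA of 0.212 (0.154 to 0.286) at the main and 0.210 (0.0715 to 0.513) at the weak site.

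CETN2 encodes centrin 2, a calcium-binding protein of centrioles that also takes part in DNA damage recognition with XPC and in mRNA export with the TREX-2 complex. Its window had 66.7 RPM after CF Im 68 siRNA (853 reads), 7.35 RPM after CstF-64 siRNA (54 reads), 58.3 RPM after control siRNA (784 reads) and 45.0 RPM without siRNA (711 reads). It was low after CstF-64 siRNA alone and highest after CF Im 68 siRNA. The ratio of CstF-64 siRNA was 0.126 to control siRNA (0.0939 to 0.166) and 0.163 to no siRNA (0.122 to 0.216). The ratio of CF Im 68 siRNA was 1.14 to control siRNA (1.04 to 1.26) and 1.48 to no siRNA (1.34 to 1.64). The small excess over control siRNA rested on 1 position. Without the most read position of the window it was 0.854. Set directly against each other, CF Im 68 siRNA gave 9.07 times the CETN2 level of CstF-64 siRNA (6.88 to 12.2).

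CETN2 had a main site at 151995873 and 3 weak ones with a mean of at least 1 RPM over the libraries. The main site had 57.4 RPM after CF Im 68 siRNA, 5.31 RPM after CstF-64 siRNA, 52.6 RPM after control siRNA and 37.9 RPM without siRNA. It held 86.0% of window reads with CF Im 68 siRNA (83.5 to 88.3), 72.2% with CstF-64 siRNA (58.4 to 83.5), 90.2% after control siRNA (87.9 to 92.2) and 84.2% without siRNA (81.4 to 86.8). The lower share after CstF-64 siRNA rests on 54 reads, and its interval overlaps that of the no siRNA library. The weak site at 151996198, 325 nt upstream, kept the most after CstF-64 siRNA. It had 2.42 RPM after CF Im 68 siRNA (31 reads), 0.817 RPM after CstF-64 siRNA (6 reads), 1.19 RPM after control siRNA (16 reads) and 1.08 RPM without siRNA (17 reads). Its ratio of CstF-64 siRNA to control siRNA was 0.687 (0.220 to 1.85), against 0.101 (0.0712 to 0.139) at the main site. These intervals do not overlap, but this weak site was picked as the one that kept the most and rests on 6 reads. At the weak sites 242 nt upstream and 318 nt downstream the same ratio was 0.211 (0.0409 to 0.689) and 0.366 (0.0679 to 1.29). Each of these had 3 reads after CstF-64 siRNA, and both intervals overlap that of the main site.

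Cleavage at the CETN2 main site was spread over several positions in the controls and was sharper in both depleted libraries. The most read position took 81.3% of site reads with CF Im 68 siRNA (78.3 to 84.1), 92.3% with CstF-64 siRNA (79.1 to 98.4, 39 reads), 66.3% after control siRNA (62.7 to 69.8) and 57.4% without siRNA (53.4 to 61.4). The intervals of the depleted libraries do not overlap those of the controls, and the controls do not overlap each other. A position 6 nt downstream took 8.17% with CF Im 68 siRNA, 2.56% with CstF-64 siRNA (1 read), 12.3% after control siRNA and 18.7% without siRNA. The position 1 nt upstream took 6.68% with CF Im 68 siRNA, 2.56% with CstF-64 siRNA (1 read), 14.3% after control siRNA and 13.9% without siRNA. Among 13818 sites with at least 30 reads in every library, 7.03% had a share at the most read position at least 10 points above both controls with CF Im 68 siRNA, and 10.3% with CstF-64 siRNA. CETN2 was among both.

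**Figure D3:**
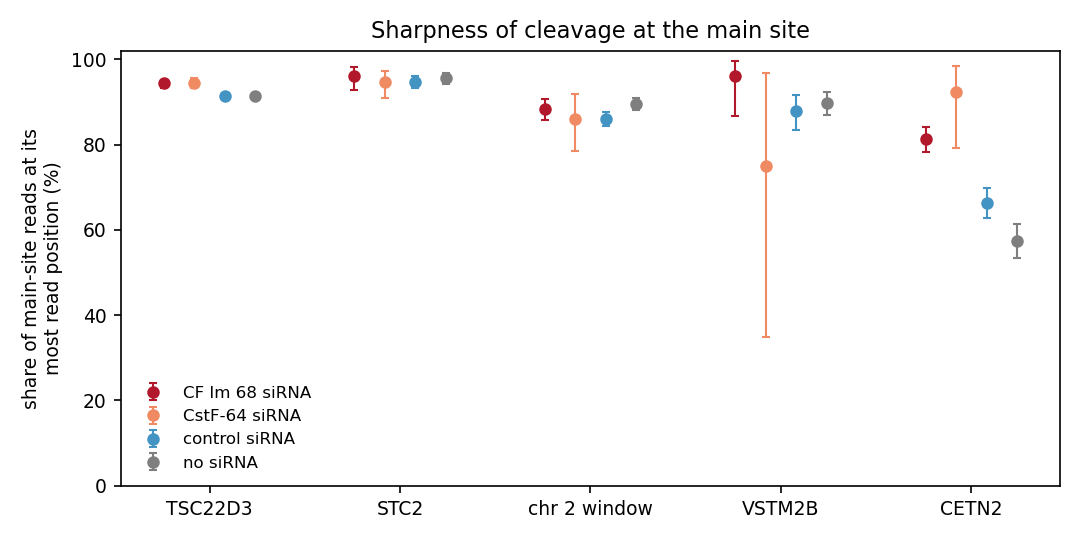
Share of main-site reads at the site's most read position, in percent, by window and library (1 library each, 95% exact Clopper-Pearson intervals). In CETN2 the share is 81.3% and 92.3% in the depleted libraries, against 66.3% and 57.4% in the control and no siRNA libraries, while TSC22D3, STC2 and the chromosome 2 window lie between 86.0% and 96.1% in every library. VSTM2B after CstF-64 siRNA, at 75%, rests on 8 reads.

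The main sites of the other windows were sharp in every library with enough reads. In STC2 the most read position of the proximal site took 96.1% with CF Im 68 siRNA, 94.7% with CstF-64 siRNA, 94.8% after control siRNA and 95.7% without siRNA. In the chromosome 2 window it took 88.4% with CF Im 68 siRNA, 86.1% with CstF-64 siRNA, 86.0% after control siRNA and 89.6% without siRNA. Of the 4 member sites with at least 30 reads in every library, 2 (TSC22D3 and CETN2) had a larger share in both depleted libraries than in both controls. The same held for 33.3% of all such sites, and the medians over them were 67.8% with CF Im 68 siRNA, 68.5% with CstF-64 siRNA, 65.2% after control siRNA and 65.0% without siRNA. That count of members is thus little above the share among all sites.

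Set among all 17877 loci with at least 50 reads, 4 member loci were at least 2-fold lower (RPM plus 1) than both controls after CF Im 68 siRNA, where 1.86% of loci were. After CstF-64 siRNA all 5 member loci were, where 6.11% of loci were. Since the members were chosen on these totals, nothing is read from these counts. The smaller of the falls against the 2 controls ranked VSTM2B 10th, STC2 25th, TSC22D3 35th and the chromosome 2 window 186th among all loci after CF Im 68 siRNA. For CstF-64 siRNA it ranked VSTM2B 2nd, the chromosome 2 window 7th, CETN2 17th, TSC22D3 272nd and STC2 432nd. TSC22D3 and STC2 were thus lowest after CF Im 68 siRNA, and the other members after CstF-64 siRNA. In all, 0.895% of loci were at least 2-fold lower than both controls after both depletions, and both comparisons share their controls.

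**Figure D4:**
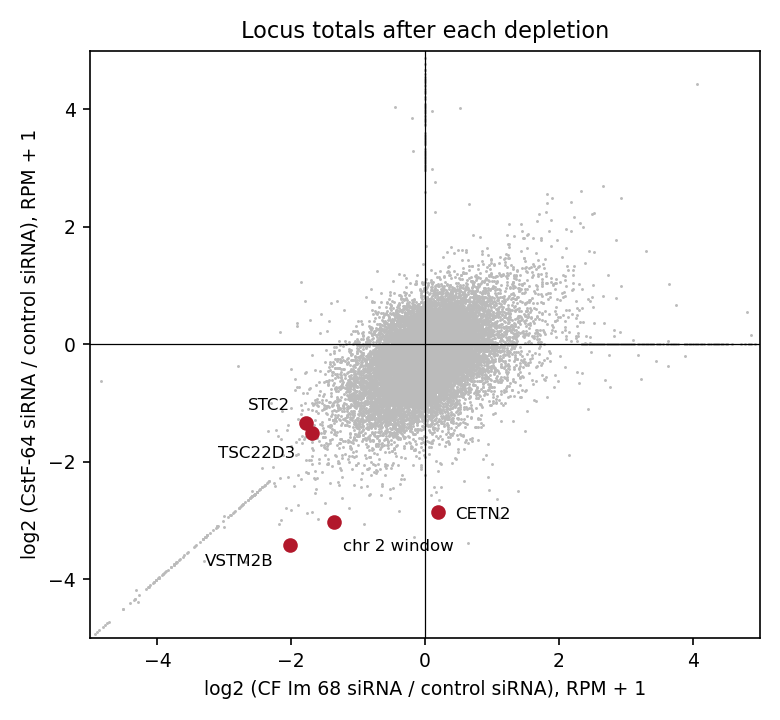
Log2 ratio of locus totals (RPM plus 1) after CF Im 68 siRNA (horizontal) and CstF-64 siRNA (vertical), both over control siRNA, for 17877 loci (grey) and the 5 members (red). Both axes share the control library, 67 loci lie outside the limits of 5, and the straight rows of points hold loci with reads nearly all in 1 library (499 loci have at least 99% of their reads in 1). The members lie at the lower left, apart from CETN2 near 0 on the horizontal axis.

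Few reads lay downstream of the windows in any library. On the 3′ side of TSC22D3, STC2 and VSTM2B, the 10 kb on the same strand held no read in either depleted library. On the 3′ side of CETN2 they held 4 reads with CF Im 68 siRNA, 2 with CstF-64 siRNA, 8 after control siRNA and 8 without siRNA. For the chromosome 2 window they held 11 reads with CF Im 68 siRNA, 2 with CstF-64 siRNA, 3 after control siRNA and 3 without siRNA. Transcripts that ran through all sites without being cleaved have no poly(A) end and would not be seen by the assay.

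Genes related to the members were examined in 4 lists by windows placed from general knowledge of hg19 gene positions. A gene was called lower or higher by the same rule, at least 2-fold against both controls. The stress response list held genes induced, like STC2, by endoplasmic reticulum or amino acid stress. After CF Im 68 siRNA, 4 of its 10 genes were lower and none higher, where 1.86% of all loci were lower. Its median log2 ratio was −0.92 to control siRNA and −1.28 to no siRNA, against medians of 0.02 and 0.13 over all loci. The list was chosen with earlier results of these data known, so its counts and medians are a description and not a test. DDIT3, the stress transcription factor CHOP, had 19.5 RPM after CF Im 68 siRNA, 32.3 RPM after CstF-64 siRNA, 65.5 RPM after control siRNA and 79.8 RPM without siRNA. DDIT4, an inhibitor of mTORC1 signalling, had 38.4 RPM after CF Im 68 siRNA, 85.4 RPM after CstF-64 siRNA, 149 RPM after control siRNA and 103 RPM without siRNA. VEGFA, an angiogenic growth factor, had 67.9 RPM after CF Im 68 siRNA, 105 RPM after CstF-64 siRNA, 161 RPM after control siRNA and 226 RPM without siRNA. CHAC1, which degrades glutathione and was named after its values were seen, had 15.5 RPM after CF Im 68 siRNA, 28.6 RPM after CstF-64 siRNA, 33.3 RPM after control siRNA and 95.3 RPM without siRNA. These 4 genes were below both controls after CF Im 68 siRNA by more than counting error. The CHAC1 levels also show how far the control libraries could lie apart in this list.

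After CstF-64 siRNA, 1 of the 10 stress genes was lower, where 6.11% of all loci were. This was SESN2, a leucine sensor of the mTORC1 pathway, with 55.7 RPM after CF Im 68 siRNA, 32.4 RPM after CstF-64 siRNA, 87.6 RPM after control siRNA and 89.8 RPM without siRNA. DDIT3 narrowly missed the call, with a log2 ratio (RPM plus 1) of −0.998 to control siRNA and −1.28 to no siRNA. Without the added 1 RPM its ratio was 0.493 to control siRNA (0.425 to 0.570) and 0.405 to no siRNA (0.351 to 0.465). The median log2 ratio of the list was −0.54 to control siRNA and −1.13 to no siRNA, against −0.19 and −0.08 over all loci. ATF4, the transcription factor that drives many of these genes, had 209.9 RPM after CF Im 68 siRNA, 143 RPM after CstF-64 siRNA, 197 RPM after control siRNA and 319.7 RPM without siRNA. It was named after its values were seen, and its level after CF Im 68 siRNA lay between the controls. HSPA5, also named after its values were seen, had 141 RPM after CF Im 68 siRNA and 115 RPM after CstF-64 siRNA. Both lay between its controls, at 156 RPM after control siRNA and 79.1 RPM without siRNA. The ratio of HSPA5 to no siRNA was 1.78 (1.65 to 1.91) with CF Im 68 siRNA and 1.45 (1.33 to 1.58) with CstF-64 siRNA.

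The glucocorticoid list was chosen because TSC22D3 is a glucocorticoid-induced gene. None of its 5 genes was lower after either depletion, where 1.86% of all loci were lower with CF Im 68 siRNA and 6.11% with CstF-64 siRNA, so that a count of 0 is near these shares and is no result about the list. FKBP5, a co-chaperone of the glucocorticoid receptor, was the 1 gene of the list that was higher after CF Im 68 siRNA, where 5.02% of all loci were. None was higher after CstF-64 siRNA, where 1.82% of all loci were. FKBP5 had 39.9 RPM after CF Im 68 siRNA, 21.1 RPM after CstF-64 siRNA, 16.0 RPM after control siRNA and 14.2 RPM without siRNA. Its ratio of CF Im 68 siRNA to control siRNA was 2.50 (2.13 to 2.94). KLF9, a zinc finger repressor, had 10.4 RPM after CF Im 68 siRNA, 4.77 RPM after CstF-64 siRNA, 6.62 RPM after control siRNA and 7.15 RPM without siRNA. The median log2 ratio of the list after CF Im 68 siRNA was −0.14 to control siRNA and 1.10 to no siRNA, and after CstF-64 siRNA −0.40 and 0.54. Over all loci these medians were 0.02 and 0.13, and −0.19 and −0.08. The controls themselves lay apart in DUSP1 and SGK1, named after their values were seen. DUSP1 had 11.8 RPM after control siRNA and 3.04 RPM without siRNA, and SGK1 had 4.69 and 1.33 RPM. KLF9 was slightly lower after control siRNA.

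None of the 6 paralogs with at least 50 reads was called after either depletion, and VSTM2A, VSTM2L and CETN1 had fewer reads. Among all loci, 1.86% were lower and 5.02% higher after CF Im 68 siRNA, and 6.11% were lower and 1.82% higher after CstF-64 siRNA, so a count of 0 in so short a list is near the background. STC1, the other stanniocalcin, had 3.28 RPM after CF Im 68 siRNA, 2.32 RPM after CstF-64 siRNA, 7.59 RPM after control siRNA and 4.43 RPM without siRNA. MFSD2A had 7.82 RPM after CF Im 68 siRNA and 5.58 RPM after CstF-64 siRNA. Both lay above its controls, at 5.21 RPM after control siRNA and 2.15 RPM without siRNA. The ratio of MFSD2A after CstF-64 siRNA to control siRNA was 1.07 (0.711 to 1.60). TSC22D2 had 22.7 RPM after CF Im 68 siRNA, 22.1 RPM after CstF-64 siRNA, 14.3 RPM after control siRNA and 11.4 RPM without siRNA, the opposite side of the controls from TSC22D3. TSC22D1 lay on the same side as TSC22D3, with 13.1 RPM after CF Im 68 siRNA, 11.2 RPM after CstF-64 siRNA, 15.7 RPM after control siRNA and 19.1 RPM without siRNA. TSC22D4, named after its values were seen, did so too, with 27.4 RPM after CF Im 68 siRNA, 21.9 RPM after CstF-64 siRNA, 31.5 RPM after control siRNA and 29.6 RPM without siRNA. With CF Im 68 siRNA the ratio to control siRNA was 0.837 (0.679 to 1.03) for TSC22D1 and 0.870 (0.753 to 1.004) for TSC22D4. These intervals include 1. To no siRNA the ratio with CF Im 68 siRNA was 0.687 (0.566 to 0.833) for TSC22D1 and 0.927 (0.805 to 1.07) for TSC22D4. With CstF-64 siRNA the ratio to control siRNA was 0.711 (0.544 to 0.922) for TSC22D1 and 0.695 (0.576 to 0.835) for TSC22D4. None of the 4 partners of CETN2 examined in the XPC and TREX-2 complexes was called, which at the same shares is also near the background. MCM3AP, which encodes GANP, the scaffold of TREX-2, had 24.9 RPM after CF Im 68 siRNA, 19.6 RPM after CstF-64 siRNA, 18.4 RPM after control siRNA and 14.0 RPM without siRNA. RAD23B had 79.0 RPM after CF Im 68 siRNA and 73.1 RPM after CstF-64 siRNA. Both lay below its controls, at 91.3 RPM after control siRNA and 91.0 RPM without siRNA. The ratio of RAD23B to control siRNA was 0.865 (0.795 to 0.941) with CF Im 68 siRNA and 0.801 (0.722 to 0.887) with CstF-64 siRNA. XPC, which recognises damaged DNA, had 7.43 RPM after CF Im 68 siRNA, 5.17 RPM after CstF-64 siRNA, 10.0 RPM after control siRNA and 6.20 RPM without siRNA. The median log2 ratio of the partners was −0.08 to control siRNA and 0.51 to no siRNA after CF Im 68 siRNA, and −0.34 and 0.09 after CstF-64 siRNA. For the paralogs it was −0.06 and 0.07 after CF Im 68 siRNA, and −0.48 and −0.42 after CstF-64 siRNA. Over all loci it was 0.02 and 0.13 after CF Im 68 siRNA, and −0.19 and −0.08 after CstF-64 siRNA.

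**Figure D5:**
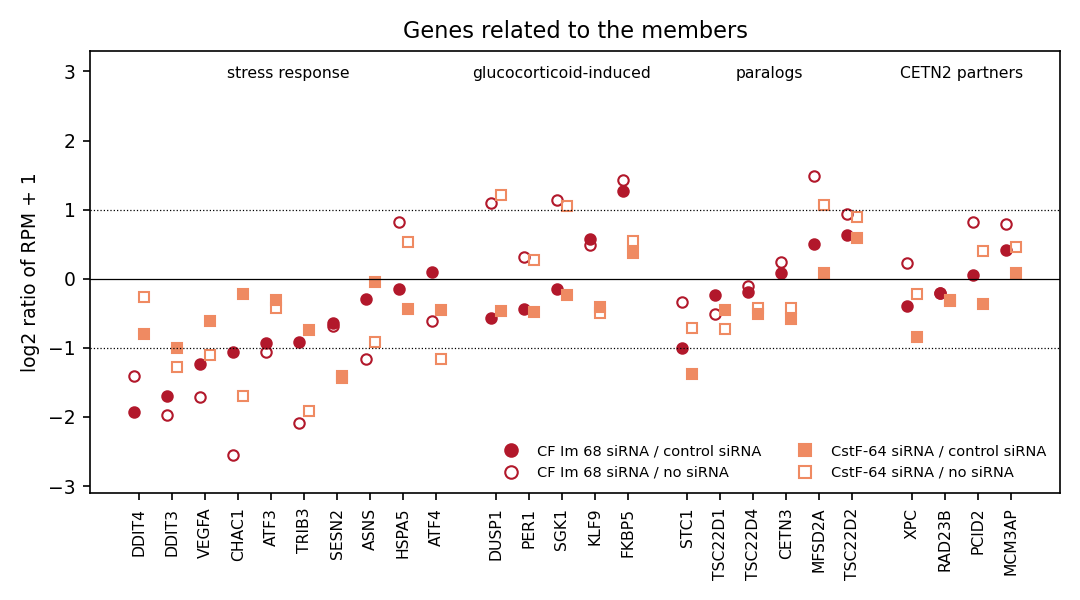
Log2 ratios of window totals (RPM plus 1) for the list genes with at least 50 reads, after CF Im 68 siRNA (circles) and CstF-64 siRNA (squares), over control siRNA (filled) and no siRNA (open). Dotted lines mark 2-fold. DDIT4, DDIT3, VEGFA and CHAC1 have both circles below the lower line, and FKBP5 has both above the upper line.

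The locus most like each member was sought among 11260 other loci with at least 50 reads in each control library, by the Euclidean distance of the log2 ratios (RPM plus 1) of the other 3 libraries to control siRNA. The nearest to STC2, at a distance of 0.148, was at 2478898 on the plus strand of chromosome 1. It had 9.38 RPM after CF Im 68 siRNA, 11.6 RPM after CstF-64 siRNA, 31.8 RPM after control siRNA and 34.4 RPM without siRNA. The nearest to CETN2, at 0.420, was at 47424963 on the plus strand of chromosome 21. It had 55.9 RPM after CF Im 68 siRNA, 8.03 RPM after CstF-64 siRNA, 52.6 RPM after control siRNA and 33.1 RPM without siRNA. Its order of the 4 libraries was that of CETN2, which the choice by nearest ratios favours, so nothing is read from it. The nearest loci to TSC22D3, the chromosome 2 window and VSTM2B were chr10:118955641 (minus strand, 0.219), chr12:122692084 (plus strand, 0.452) and chr19:39220832 (minus strand, 0.830). The likeness rests on 4 libraries only, and no gene name was assigned to these positions.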

How the data were processed

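Each deposited file lists whole-number counts of reads for 3′ end positions of 1 nucleotide, with the strand. The build is hg19 (GRCh37), per the submitters' processing notes. Which aligner was used is not given in the sources used here, and neither is the handling of repeated matches or PCR duplicates. Between 10.2 and 12.2% of the positions' serial numbers are absent per file, so some positions were dropped at a step that no source used here describes. Internal priming at A-rich stretches was not separated.

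Positions were clustered within 25 nt per strand over all libraries, most read first. Clusters with a mean of at least 1 RPM were sites (33723), and sites within 10 kb formed loci. A tested pair was the 2 most used sites with at least 5% of locus reads each. Analyses used Python 3.11.15, SciPy 1.17.1 and, for scaling alternatives, edgeR 4.0.16 and DESeq2 1.42.0. The exact Poisson, Clopper-Pearson and conditional binomial intervals are at 95% and, without molecular identifiers, cover counting error only.

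The windows, members and lists were chosen with earlier results of these data known. All 5 members were named, and from each list at most 4 genes with the largest change against both controls, exceptions being marked. A gene of the CETN2 partner list is not reported here. Of the 30 windows placed by hand for list genes and targets, 30 had the chromosome of the RefSeq gene table and 25 had a strand listed, 0 of them against it. The windows of TSC22D2, PCID2 and ASNS are shorter than the gene in that table. The measure of sharpness over all sites, and its minimum of 30 reads, were added after seeing the data. Poly(A) site sequences are not shown, since no hg19 genome was used here.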

Additional observations from a re-analysis of the deposited data

Results flagged for a closer look

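CETN2 lay on opposite sides of both control libraries in the 2 depletions, above them after CF Im 68 siRNA and below them after CstF-64 siRNA. The side of control siRNA on which CF Im 68 siRNA lay was not firm. Its ratio to control siRNA was 1.14 (95% exact conditional interval 1.04 to 1.26), but 0.854 (0.721 to 1.01) without the most read position, and 1.13 (0.991 to 1.29) with reads thinned to the smallest library. The ratio of its window total after CF Im 68 siRNA to that after CstF-64 siRNA was 9.07, from 853 and 54 reads. With 1 library per depletion, the difference between the depletions was not tested over cultures.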

How the results depend on the processing

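No paired analysis was possible because each group had 1 library. The alternatives tried for the member ratios to control siRNA included 1 that put no siRNA in place of control siRNA. Under all of them, 74 ratios stayed within the counting interval, 15 left it and 1 crossed 1. Some of the 15 were under that change of control. With no siRNA as the control, the ratio after CF Im 68 siRNA was 0.210 for TSC22D3, 0.261 for STC2, 0.454 for the chromosome 2 window, 0.143 for VSTM2B and 1.48 for CETN2, and after CstF-64 siRNA it was 0.237 for TSC22D3 and 0.341 for STC2. Without the most read position, the ratio after CF Im 68 siRNA was 0.202 for TSC22D3, 0.346 for STC2 and 0.854 for CETN2, which crossed 1, and after CstF-64 siRNA it was 0.211 for TSC22D3. With TMM factors and with DESeq2 size factors, the ratio after CstF-64 siRNA was 0.407 and 0.416 for TSC22D3 and 0.455 and 0.465 for STC2. Thinned to the smallest library, the ratio of STC2 after CF Im 68 siRNA was 0.331. The 4 members called lower after CF Im 68 siRNA and the 5 after CstF-64 siRNA were called under each alternative to that count, except at 3-fold, where 3 were called after each. With no siRNA as the control, the difference in the STC2 proximal share was 12.3 points after CF Im 68 siRNA, the reverse of its sign, and 22.1 points after CstF-64 siRNA, which then passed the threshold. The cause was not tested.

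In the main setting, 332 of 17877 loci were lower and 897 higher after CF Im 68 siRNA. The number lower was 1255 at 1.5-fold, 43 at 3-fold, 709 with a pseudocount of 0.1 and 70 with a pseudocount of 5. The number higher was 2118 at 1.5-fold, 375 at 3-fold, 411 with a pseudocount of 5 and 475 among the 11622 loci of at least 200 reads. After CstF-64 siRNA the number lower was 3028 at 1.5-fold, 217 at 3-fold, 1991 with a pseudocount of 0.1 and 306 with one of 5. The number higher was 1006 at 1.5-fold, 154 at 3-fold, 525 with a pseudocount of 0.1 and 177 with one of 5. It was 129 among the 11622 loci of at least 200 reads and 520 with DESeq2 size factors, under which 753 were lower. With TMM factors 780 were lower and 487 higher, against 1092 lower and 325 higher with total reads. The number of loci moved to the proximal site was 491 at 20 points after CF Im 68 siRNA, and 632 at 5 points and 110 at 20 points after CstF-64 siRNA. To the distal site, 126 moved with CF Im 68 siRNA and 172 with CstF-64 siRNA in the main setting. With CF Im 68 siRNA the number was 77 of 3474 loci at a pair minimum of 100 reads, 264 at 5 points and 26 at 20 points. After CstF-64 siRNA it was 308 at 5 points and 49 at 20 points. The calls in the gene lists were the same genes with TMM factors and with DESeq2 size factors, an alternative chosen after seeing the data. The median log2 ratio of the paralogs after CF Im 68 siRNA to no siRNA changed sign there, to −0.08 and −0.09. The median log2 ratios after CstF-64 siRNA to control siRNA moved toward 0 with TMM factors and DESeq2 size factors, to −0.31 and −0.28 for the stress genes, −0.21 and −0.19 for the glucocorticoid genes, −0.27 and −0.24 for the paralogs and −0.12 and −0.09 for the CETN2 partners. Depth limits VSTM2B and CETN2 after CstF-64 siRNA, with 9 and 54 reads.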
